A study of Homo sapiens with 10 samples.

Results

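The genes for the protein subunits of the mitochondrial ribosome were examined for peaks of RNA polymerase I, RNA polymerase II and a pair of histone marks in HCT116, an established human colorectal carcinoma cell line. The members were the protein-coding genes whose symbol is MRPL or MRPS followed by digits, with an optional letter. The annotation held 77 of them, 49 for the large subunit (MRPL) and 28 for the small subunit (MRPS), among 19821 protein-coding genes on chromosomes 1 to 22 and X. The choice used symbols only and no measured value, but it was made with earlier results of these data known. The series profiled wild-type, untreated HCT116 cells by CUT&Tag, in which an antibody tethers a transposase to chromatin so that DNA beside the target is cut and tagged. The 10 samples used here were 3 for POLR1A, the catalytic core subunit of RNA polymerase I, 3 for POLR2A, its counterpart in RNA polymerase II, 1 for H3K4me3, a histone mark of active promoters, and 3 for H3K9me3, a mark of heterochromatin. All came from the 1 cell line in 1 condition. Each target had 1 deposited peak list, so a gene has 1 value per target and no replicate error, and no test was run. The 95% intervals given are exact (Clopper-Pearson) and cover counting error only. The read depth behind the lists is unknown. In a bulk population, a weak peak in many cells and a strong peak in few cells cannot be told apart.

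Mitochondrial ribosomes translate the few proteins encoded by mitochondrial DNA, most of them core parts of the respiratory chain. Their ribosomal RNAs are made inside the organelle, whereas their proteins are encoded by nuclear genes scattered over the chromosomes, transcribed by RNA polymerase II, made in the cytosol and imported. RNA polymerase I normally transcribes the cytosolic ribosomal RNA genes in the nucleolus. Some subunits descend from the bacterial ribosome and others are found only in mitochondria. Systematic names carry the letters u (shared by all ribosomes), b (shared with bacteria) and m (mitochondrial).

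Some of the promoters discussed below are shown here, each as 300 bases from the RefSeq promoter table of GRCh38.p14. They are read 5′ to 3′ in the direction of the gene, with 250 bases before the annotated start and 50 after it. Capitals mark matches to the letters bound by YY1 (AAGATGGC), ETS factors (CCGGAAG) and SP or KLF factors (GGGGCGGGG), on either strand. MRPS7, MRPL38 and MRPS27 had POLR1A, POLR2A and H3K4me3 peaks at the start. They are not typical of members with POLR1A. Of 13 members with POLR1A at a listed start, only these 3 hold the YY1 letters, against 18 of 56 members without POLR1A there. MRPL4, with the strongest POLR1A peak among members, has no match to the marked letters and is not shown. MRPL54 was the 1 member with peaks of all 4 targets. MRPL52 had the strongest H3K4me3 peak of any member without a POLR2A peak, and MRPS12 had no peak of any target.
MRPS7 (chr17:75261629-75261928, plus strand): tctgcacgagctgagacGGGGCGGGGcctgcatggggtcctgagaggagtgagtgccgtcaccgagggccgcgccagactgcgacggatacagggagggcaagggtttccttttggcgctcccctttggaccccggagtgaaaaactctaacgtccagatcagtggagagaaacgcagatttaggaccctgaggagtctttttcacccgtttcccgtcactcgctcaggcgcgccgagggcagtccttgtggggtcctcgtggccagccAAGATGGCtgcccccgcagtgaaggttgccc
MRPL38 (chr17:75904835-75905134, minus strand): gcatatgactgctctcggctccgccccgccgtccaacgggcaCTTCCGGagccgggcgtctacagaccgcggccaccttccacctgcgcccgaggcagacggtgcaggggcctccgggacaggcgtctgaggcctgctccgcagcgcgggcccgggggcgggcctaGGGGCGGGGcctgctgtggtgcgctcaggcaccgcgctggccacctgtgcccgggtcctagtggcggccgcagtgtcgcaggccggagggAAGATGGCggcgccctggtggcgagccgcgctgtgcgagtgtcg
MRPS27 (chr5:72320191-72320490, minus strand): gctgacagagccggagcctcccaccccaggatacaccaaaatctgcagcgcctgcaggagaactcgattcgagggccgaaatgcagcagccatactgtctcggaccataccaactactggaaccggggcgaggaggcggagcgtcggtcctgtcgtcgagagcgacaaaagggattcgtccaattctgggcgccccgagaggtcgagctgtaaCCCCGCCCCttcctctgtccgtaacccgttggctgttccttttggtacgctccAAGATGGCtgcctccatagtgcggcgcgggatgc
MRPL54 (chr19:3762432-3762731, plus strand): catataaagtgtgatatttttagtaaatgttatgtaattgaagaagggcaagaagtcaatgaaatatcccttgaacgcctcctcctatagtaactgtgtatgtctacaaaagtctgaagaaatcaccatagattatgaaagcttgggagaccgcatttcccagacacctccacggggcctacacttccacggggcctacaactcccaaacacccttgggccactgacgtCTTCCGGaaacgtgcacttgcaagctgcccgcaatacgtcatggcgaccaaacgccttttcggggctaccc
MRPL52 (chr14:22829637-22829936, plus strand): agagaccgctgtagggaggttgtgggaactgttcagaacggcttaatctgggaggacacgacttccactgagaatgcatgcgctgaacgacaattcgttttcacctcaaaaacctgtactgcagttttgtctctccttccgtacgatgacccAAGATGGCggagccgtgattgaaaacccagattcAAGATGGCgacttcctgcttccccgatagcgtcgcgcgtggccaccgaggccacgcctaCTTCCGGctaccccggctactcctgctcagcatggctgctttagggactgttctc
MRPS12 (chr19:38930694-38930993, plus strand): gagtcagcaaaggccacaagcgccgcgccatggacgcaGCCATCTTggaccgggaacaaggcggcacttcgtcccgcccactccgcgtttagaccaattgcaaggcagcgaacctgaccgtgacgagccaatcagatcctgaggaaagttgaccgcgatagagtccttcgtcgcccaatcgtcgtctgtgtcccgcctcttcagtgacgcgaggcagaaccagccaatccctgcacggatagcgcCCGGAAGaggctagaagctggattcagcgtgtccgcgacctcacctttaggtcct

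Peaks of RNA polymerase II and H3K4me3 were found at most of these genes. A gene was counted for a target if a peak came within 1 kb of either end of the gene. H3K4me3 was found at 71 of the 77 genes (92.2%, interval 83.8 to 97.1%), against 54.6% of all protein-coding genes. POLR2A was found at 58 genes (75.3%, interval 64.2 to 84.4%), against 41.3% of all protein-coding genes. Both intervals lay wholly above the share of all genes. POLR1A was found at 15 genes (19.5%, interval 11.3 to 30.1%), against 11.2% of all protein-coding genes, and the lower limit of that interval just cleared the share of all genes. H3K9me3 was found at 3 genes (3.90%, interval 0.811 to 10.97%), against 2.70% of all genes, a share within counting error. The commonest pattern was POLR2A with H3K4me3 and neither of the others, at 41 members (53.2%), against 28.6% of all genes. H3K4me3 alone was found at 13 members (16.9%), against 14.4% of all genes. No peak of any list was found at the ends of 6 members (7.79%), against 42.8% of all genes. Read only among genes with H3K4me3, the distance was smaller. POLR2A was at 58 of the 71 members with H3K4me3 (81.7%, interval 70.7 to 89.9%), against 72.8% of protein-coding genes with H3K4me3, and POLR1A at 15 of the 71 (21.1%), against 20.1%.

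**Figure D1:**
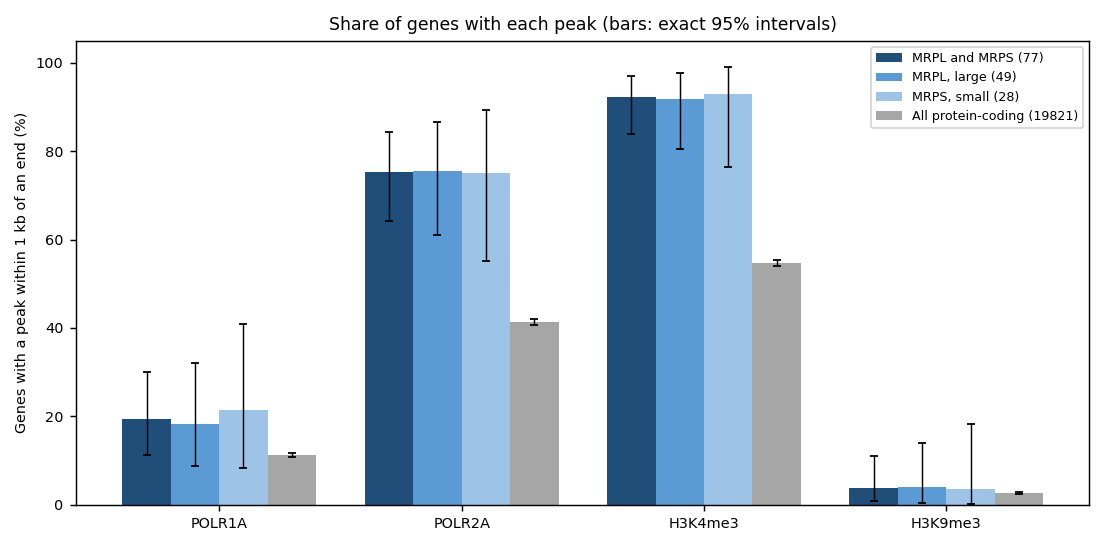
Share of genes (%, vertical axis) with a peak of each target within 1 kb of a gene end, for all 77 MRPL and MRPS genes, the 49 large subunit genes, the 28 small subunit genes and all 19821 protein-coding genes, with exact 95% intervals as bars. The members stand at 75.3% for POLR2A and 92.2% for H3K4me3, against 41.3% and 54.6% of all genes, and large and small subunit genes overlap for every target.

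The H3K4me3 peaks of members were mostly in the upper part of that list. Strength is the fold enrichment over background that the authors' peak caller gave each peak, a linear ratio that is compared here only within one list. The median highest H3K4me3 peak was 14.03-fold at members, against 11.05-fold at all protein-coding genes with a peak. Ranked among all genes with H3K4me3, the members had a median percentile of 77.2, and 39 of the 71 lay above the 75th. When each list was cut to its strongest 3812 peaks, the length of the POLR1A list, 44 members kept H3K4me3 (57.1%), against 17.8% of all genes. For POLR2A the medians lay closer together. The median was 8.39-fold at members, against 8.87-fold at all genes with POLR2A, and the median percentile was 46.1. The strongest 3812 POLR2A peaks reached 23 members (29.9%), against 17.3% of all genes. H3K4me3 peaks with a −log10 q of at least 5 were at 71 members (92.2%), against 53.7% of all genes, and such POLR2A peaks at 47 (61.0%), against 33.1%. Among genes with a peak these shares were close, with 71 of 71 members against 98.3% of genes for H3K4me3, and 47 of 58 members (81.0%) against 80.1% of genes for POLR2A. In gene bodies beyond 1 kb of both ends, POLR2A was found at 12 members, against 23.5% of all genes, and H3K4me3 at 3, against 14.6%. Gene length was not matched in these body shares, and a gene shorter than 2 kb has no such body but was still counted.

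The highest H3K4me3 values fell in a narrow band. MRPS21, a small subunit protein shared with bacteria, had 19.5-fold. MRPL52, a mitochondrial addition to the large subunit, had 19.4-fold and MRPL19 had 19.1-fold. MRPL16 had 18.8-fold, MRPL17 18.7-fold, MRPL33 and MRPL39 18.6-fold each, and MRPS14 18.4-fold. These 8 genes did not share a high POLR2A value. MRPL52 had no POLR2A peak, and the POLR2A peaks of the other 7 ran from 6.49-fold to 15.5-fold with a median of 7.19-fold. MRPL17 alone among them had POLR1A. The other 63 members with H3K4me3 ran from 4.06-fold at MRPL35 to 18.1-fold at MRPL42.

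POLR2A was strongest at MRPS27, with 19.9-fold. MRPS27 is a small subunit protein of the pentatricopeptide repeat family, whose members bind RNA. MRPS24 followed with 19.6-fold, MRPL38 with 18.9-fold and MRPL32 with 18.0-fold. MRPL32, a protein cut to its mature form by a mitochondrial protease before assembly, had no POLR1A peak within 1 kb. Values were 15.5-fold at MRPL17, 14.2-fold at MRPL48, 13.9-fold at MRPL49, 13.8-fold at MRPL2, 13.3-fold at MRPL18 and 12.8-fold at MRPL40. Of these 10 genes, 6 also had POLR1A. The lowest POLR2A values at a gene end were 3.20-fold at MRPL22, 4.13-fold at MRPL36, 4.36-fold at MRPS2, 4.68-fold at MRPL27 and 4.87-fold at MRPS15. MRPL36 also had a stronger POLR2A peak of 11.5-fold at an internal start, beyond 1 kb of both ends. MRPL22 lines the exit tunnel for the new protein chain, and MRPL27 lies beside the catalytic centre. None of these 5 had POLR1A. The remaining 43 members with POLR2A ran from 4.90-fold to 12.7-fold.

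POLR2A and H3K4me3 strengths did not track each other. Spearman's rho across the 58 members with both was -0.03, and across 7886 protein-coding genes it was 0.01. These describe genes within 1 pair of lists, and genes are not independent replicates. MRPL38 had one of the strongest POLR2A peaks, 18.9-fold, beside a low H3K4me3 peak of 8.61-fold. MRPL40 had 12.8-fold for POLR2A and 6.54-fold for H3K4me3. At the other extreme, 13 members had H3K4me3 and no POLR2A peak at an end. The highest were MRPL52 with 19.4-fold, MRPL9 with 17.4-fold, MRPS18A with 16.2-fold, MRPS35 with 15.6-fold, MRPL41 with 12.2-fold and MRPS5 with 11.96-fold. MRPL9 reaches out from the large subunit, and MRPS18A is named for the small subunit but was assigned to the large one in the systematic names, as mL66. The other 7 ran from 4.06-fold to 10.9-fold. The 13 had a median H3K4me3 of 10.9-fold, against 14.3-fold at members with POLR2A. Over all protein-coding genes the medians were 9.80-fold without POLR2A and 11.5-fold with it.

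**Figure D2:**
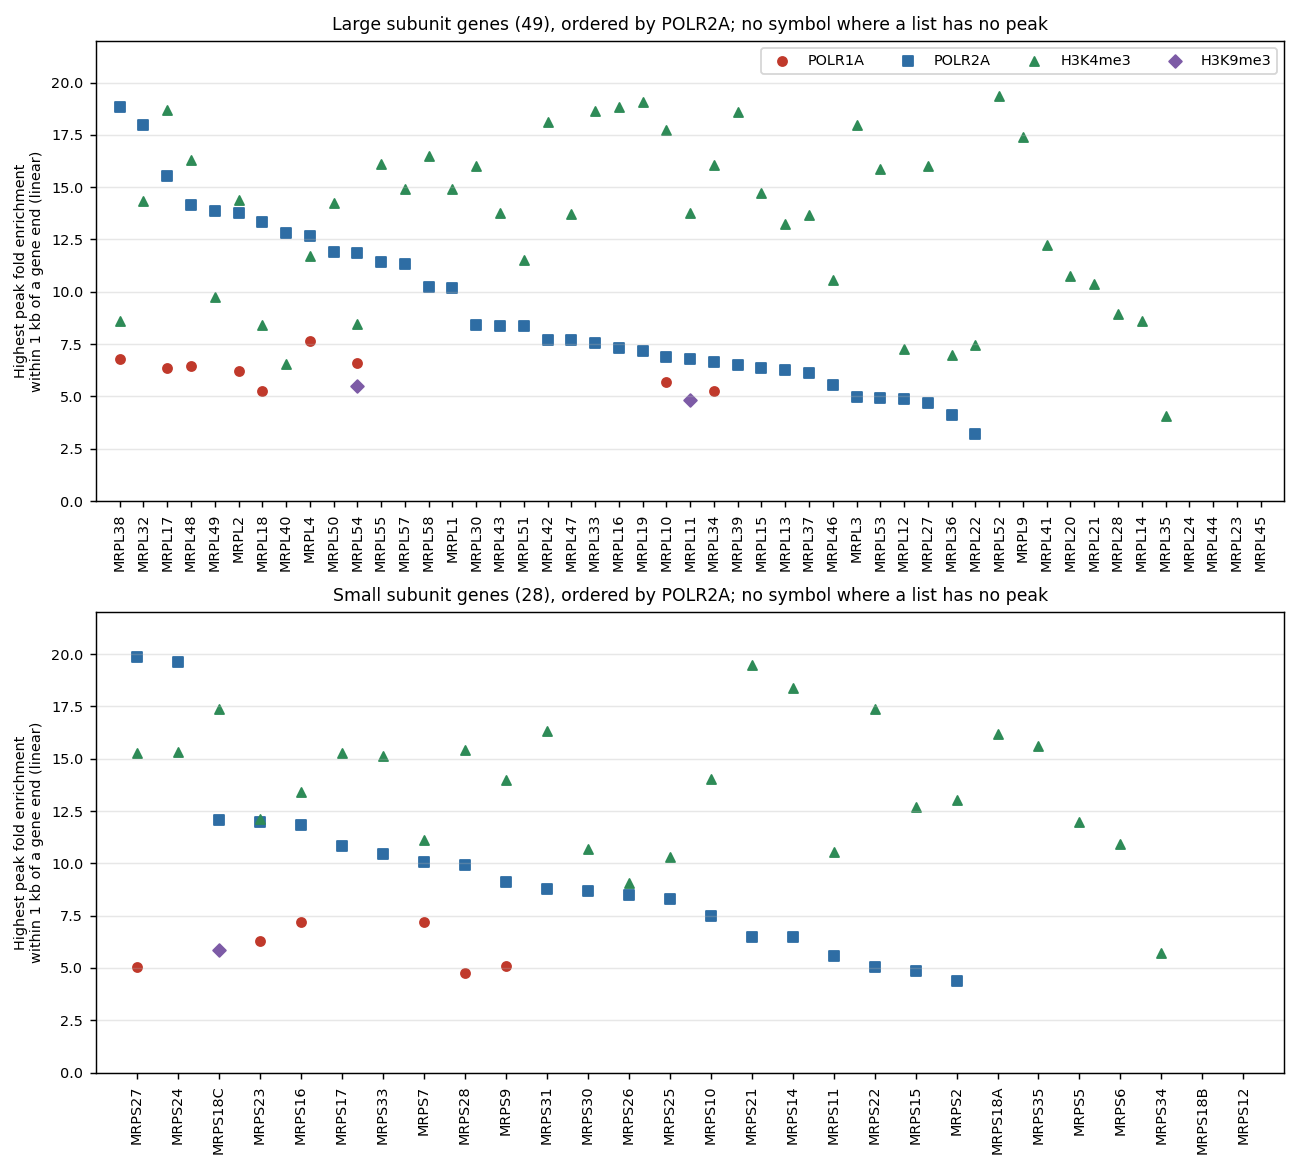
Highest fold enrichment of a peak within 1 kb of a gene end (vertical axis, linear ratio given by the authors' caller) for each large subunit gene (top) and small subunit gene (bottom), ordered by POLR2A, with 1 symbol per target and none where a list has no peak. High H3K4me3 values occur along the whole POLR2A order, up to 19.4-fold at MRPL52 which has no POLR2A peak, beside values as low as 4.06-fold at MRPL35, and POLR1A appears mostly toward the left, where POLR2A is strong.

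POLR1A peaks at these genes lay on POLR2A peaks, as they did at most other genes. All 15 overlapped a POLR2A peak, against 94.1% of protein-coding genes with POLR1A at an end, and the distance between the POLR1A summit and the nearest POLR2A summit had a median of 90 bp. At MRPS7 the summits were 1 bp apart, at MRPS16 2 bp and at MRPL4 3 bp. Their fold enrichments ran from 4.78 to 7.65, with a median of 6.29-fold, against 6.08-fold over all protein-coding genes with POLR1A, where the highest was 22.4-fold. Among those genes the members had a median percentile of 53.7, with 9 of 15 above the 50th and 1 above the 75th.

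MRPL4, whose counterpart in bacteria lines the exit tunnel, had the strongest POLR1A peak among members, 7.65-fold at chr19:10251802-10252118, beside 12.7-fold for POLR2A and 11.7-fold for H3K4me3. MRPS7, a head protein of the small subunit, had 7.19-fold at chr17:75261627-75261869, overlapping the promoter sequence shown. MRPS16, mutated in an inherited disorder of mitochondrial translation, had 7.18-fold. MRPL38 had 6.80-fold at chr17:75904950-75905285, and MRPL54 had 6.58-fold at chr19:3762625-3763087. Both are mitochondrial additions to the large subunit. Values were 6.46-fold at MRPL48, 6.37-fold at MRPL17, 6.29-fold at MRPS23 and 6.20-fold at MRPL2, which helps to shape the catalytic centre. MRPL10, the base of the stalk that recruits translation factors, had 5.67-fold. MRPL18 and MRPL34 had 5.26-fold each, MRPS9 had 5.10-fold, MRPS27 had 5.03-fold at chr5:72320206-72320616 and MRPS28 had 4.78-fold. MRPL34 lay just inside the 1 kb limit, since its POLR1A peak sits at a start inside the gene, 994 bp from its table end, on a POLR2A peak of 13.8-fold. MRPL24 lay just outside the limit, with a POLR1A peak of 5.07-fold that lies 1264 bp from the gene end, just upstream of an internal start. MRPL15 had a weak POLR1A peak of 3.40-fold in its body. These were the 2 members with POLR1A beyond 1 kb of both ends, against 4.72% of all genes, with gene length not matched. The −log10 q of the 15 peaks ran from 2.79 to 7.59, above the lowest value in the list, which was 1.02. A −log10 q of 5 was reached at 8 of the 15 (53.3%), against 48.0% of protein-coding genes with POLR1A at an end. At that stricter threshold POLR1A was left at 8 members (10.4%), against 5.36% of all genes.

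POLR1A was found mostly at members with strong POLR2A, at shares close to those of all genes of the same POLR2A strength. Of members with POLR2A, 15 of 58 had POLR1A (25.9%, interval 15.3 to 39.0%), against 26.0% of protein-coding genes with POLR2A. By POLR2A strength, POLR1A was found at 0 of 11 members below 6-fold, against 5.87% of all such genes. From 6-fold to below 10-fold it was found at 4 of 24 members (16.7%), against 15.4%. At 10-fold or more it was found at 11 of 23 members (47.8%), against 46.2%. The median POLR2A peak was 11.98-fold at members with POLR1A and 7.54-fold at those without it. Over all protein-coding genes these medians were 13.2-fold and 7.79-fold. H3K4me3 did not separate them, with 14.002-fold at members with POLR1A and 14.7-fold at those with POLR2A but no POLR1A. Among the 15 members, Spearman's rho between POLR1A and POLR2A strength was 0.20, against 0.58 over 2126 genes with both.

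**Figure D3:**
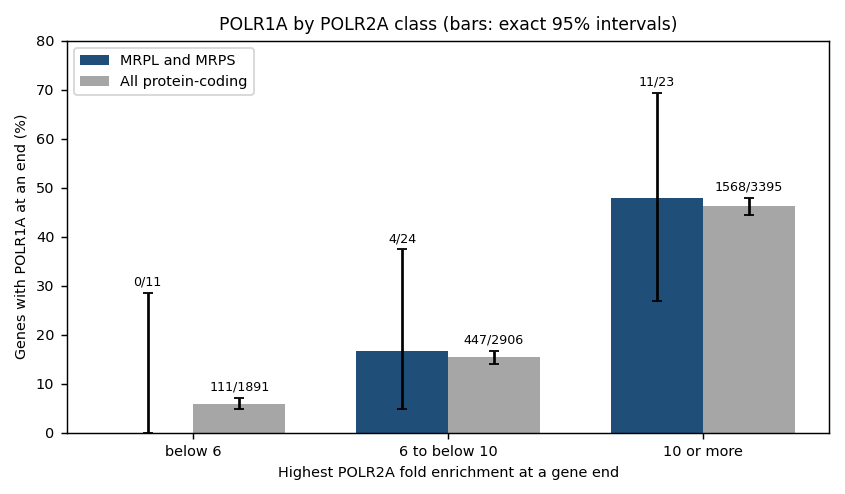
Share of genes with a POLR1A peak at an end (%, vertical axis) by the highest POLR2A fold enrichment at an end (horizontal axis), for MRPL and MRPS genes and for all protein-coding genes, with exact 95% intervals as bars and gene counts above them. The share at members was 0, 16.7 and 47.8% in the 3 classes, close to 5.87, 15.4 and 46.2% of all genes.

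H3K9me3 was found at the starts of MRPS18C, MRPL54 and MRPL11, and beyond 1 kb of both ends in 0 of the 77, against 12.3% of all genes. Gene length was not matched in this body share, so it does not show a trait of the family. MRPS18C had 5.86-fold, MRPL54 5.50-fold and MRPL11 4.81-fold. MRPL11 lies at the base of the stalk. The peaks were 316 to 333 bp wide, where the median over the whole list was 496 bp, and all 3 lay over POLR2A and H3K4me3 peaks. The POLR2A values of these genes were 12.1-fold, 11.8-fold and 6.81-fold. None of the 3 H3K9me3 peaks reached a −log10 q of 5, and the highest was 4.88 at MRPS18C. At the stricter threshold H3K9me3 was at 0 members, against 0.590% of all genes, and the strongest 3812 H3K9me3 peaks reached 1, against 0.656%. At MRPL54 the peaks of POLR1A, POLR2A, H3K4me3 and H3K9me3 lay together over the start. The H3K4me3 peak there had 8.41-fold, and a second one of 8.47-fold lay upstream, near the start of APBA3.

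Of the 6 members with no H3K4me3 at an end, a pair had it at a start inside the annotated gene. MRPL24 had 17.1-fold H3K4me3, 9.59-fold POLR2A and 5.07-fold POLR1A there, and MRPL44, a protein with a ribonuclease III-like fold, had 16.3-fold H3K4me3 and 7.46-fold POLR2A. The gene table gives the outermost end over all transcripts, which at these genes lies more than 1 kb upstream of the start listed in the promoter table. Counted at either an end or a listed start, H3K4me3 was at 73 of 77 members, against 57.7% of all genes, and POLR2A at 60, against 43.9%. POLR1A was at 16, against 12.0%, and H3K9me3 at 3, against 2.94%. The strongest POLR2A peak of MRPL36 was likewise at its internal start, with 11.5-fold against the 4.13-fold at its end.

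The other 4 members, MRPS18B, MRPL23, MRPL45 and MRPS12, had no peak of any list at or inside the gene. Each lay in a stretch with no peak of any of the 4 lists. That of MRPS18B was chr6:28597875-31735596, 3138 kb long, and held 95 protein-coding genes. That of MRPL23 was 321 kb with 6 genes, that of MRPL45 173 kb with 3 genes and that of MRPS12 487 kb with 16 genes. The H3K4me3 list also held 67 peaks on other contigs assigned to chromosome 6, beside 801 on chromosome 6 itself, and 8 to 22 on those of chromosomes 11, 17 and 19. Genes inside these stretches lack peaks by definition. The cause of the empty stretches was not tested. MRPS12, whose bacterial counterpart forms part of the decoding centre, starts 181 bp from SARS2, the mitochondrial seryl-tRNA synthetase. The SARS2 start lies in the same stretch.

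**Figure D4:**
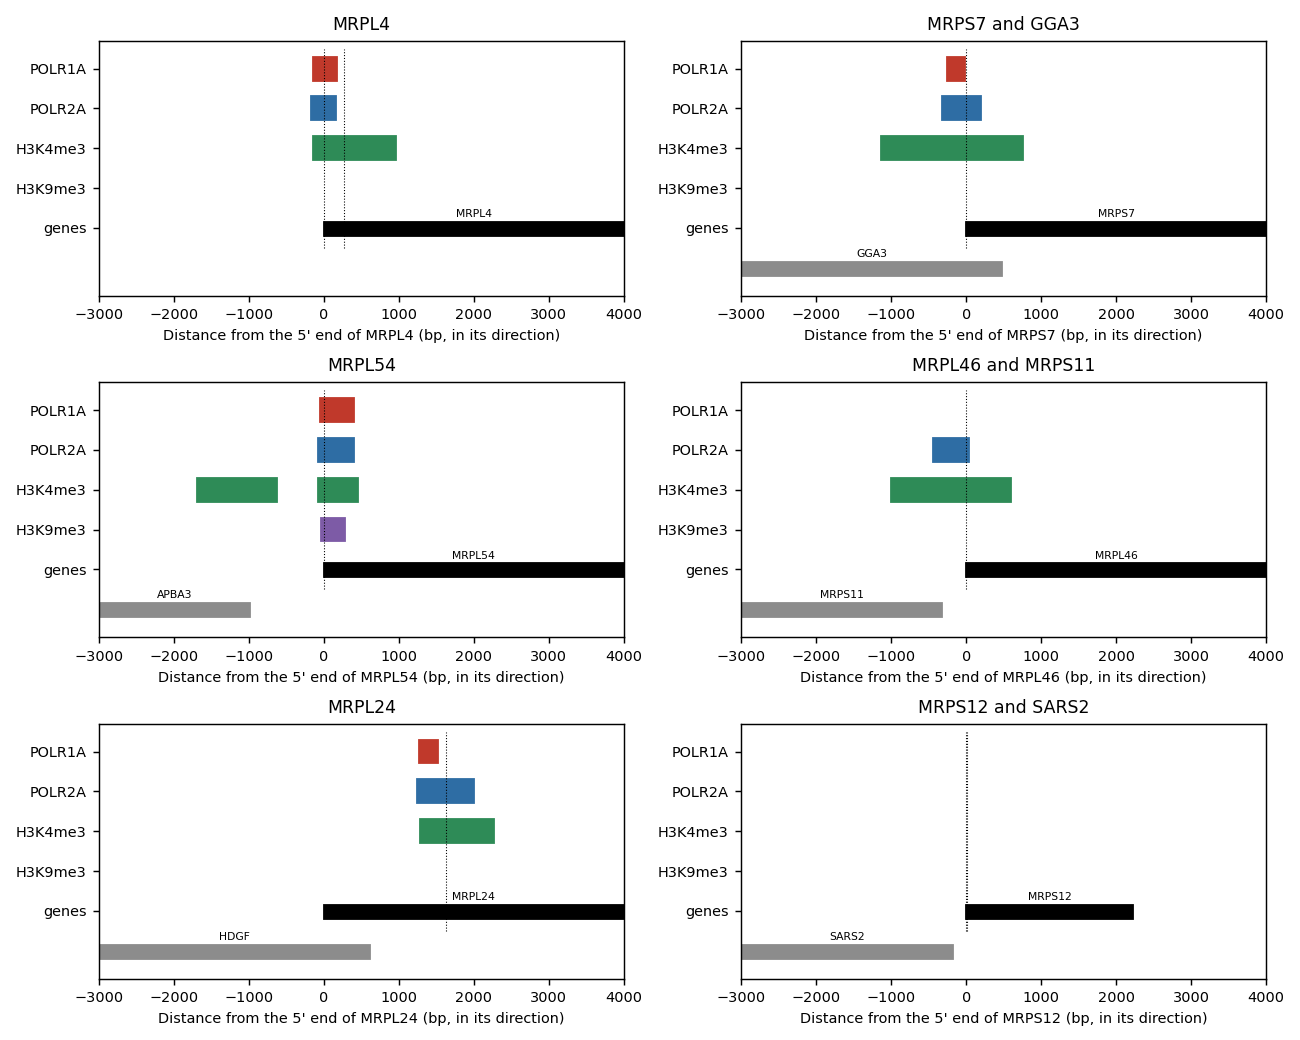
Peaks of the 4 targets (coloured bars, 1 row per target) and genes (black, the member; grey, its neighbour) by distance in bp from the 5′ end of the named member, in its direction, with listed starts as dotted lines. The POLR1A peak lies on the POLR2A peak at MRPL4, MRPS7, MRPL54 and MRPL24, and no target has a peak at MRPS12.

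Large and small subunit genes differed by less than counting error for each target. POLR1A was at 9 of 49 large subunit genes (18.4%) and 6 of 28 small subunit genes (21.4%). POLR2A was at 37 (75.5%) and 21 (75%), and H3K4me3 at 45 (91.8%) and 26 (92.9%). H3K9me3 was at 2 large and 1 small subunit genes. The median POLR2A peak was 7.72-fold at large and 8.79-fold at small subunit genes, and the median H3K4me3 peak was 14.2-fold and 14.01-fold. With MRPS30 (mL65) and MRPS18A (mL66) moved to the large subunit by their systematic names, 51 large and 26 small subunit genes gave the same counts of POLR1A. By the letter of the systematic name, POLR1A was at 6 of 26 members with u, 3 of 18 with b and 5 of 31 with m. POLR2A was at 21, 12 and 23 of them, and H3K4me3 at 23, 18 and 28. The shares over all protein-coding genes were 11.2% for POLR1A, 41.3% for POLR2A and 54.6% for H3K4me3. MRPS24 and MRPS28 carry no systematic name in the table.

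Many of these genes lie close to another gene. A protein-coding neighbour had an end within 1 kb of an end of 42 of the 77 members (54.5%), against 28.6% of all protein-coding genes. It was so for 28 of 49 large and 14 of 28 small subunit genes. For 5 of the 42, which were MRPL16, MRPL19, MRPS14, MRPS22 and MRPS24, the neighbour lay only at the 3′ end. That of MRPS24 was URGCP-MRPS24, an entry that carries its name and has the same 3′ end. MRPS28 likewise shared an end with TPD52-MRPS28, but also had TPD52 as a neighbour. Such entries were counted in the share of all genes as well. Starts are known for 69 members, and for 23 of them (33.3%) a protein-coding gene on the opposite strand started within 1 kb, against 13.6% of all genes with a listed start. The distance between the starts had a median of 210 bp and was 250 bp or less at 14. A peak in reach of both starts was found for H3K4me3 at 20 of these 23 members (87.0%), against 85.2% of protein-coding genes with such a pair, and for POLR2A at 18 (78.3%), against 72.3%. It was found for POLR1A at 4 (17.4%), against 25.8%, and for H3K9me3 at 2, against 4.80%. MRPL46 and MRPS11 are each other's neighbour, so the 23 members form 22 pairs, of which 19 shared H3K4me3 and 17 POLR2A. A shared peak cannot be assigned to either gene from these lists. At listed starts, POLR1A was at 5 of the 23 members with such a pair (21.7%), against 27.3% of protein-coding genes with one, and at 8 of the 46 without (17.4%), against 9.64%.

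The pairs with a POLR1A peak within 1 kb of both starts were MRPS27 with PTCD2, MRPL18 with TCP1, MRPS7 with GGA3 and MRPL54 with APBA3. PTCD2 is itself a mitochondrial pentatricopeptide repeat protein, TCP1 is a subunit of the cytosolic chaperonin, GGA3 is a sorting adaptor of the Golgi, and APBA3 is an adaptor protein. MRPS27 and PTCD2 start 133 bp apart, and shared 5.03-fold POLR1A, 19.9-fold POLR2A and 15.3-fold H3K4me3. MRPL18 and TCP1 start 210 bp apart, and shared 5.26-fold POLR1A and 13.3-fold POLR2A. The starts of MRPS7 and GGA3 lie 273 bp apart and those of MRPL54 and APBA3 990 bp apart. The POLR1A summit at MRPL54 lay 123 bp after the MRPL54 start, on the side away from APBA3. That pair thus shares the peak only through the 1 kb window. Strand was not listed for 3 further members with POLR1A at a shared end, which were MRPL2 beside KLC4, MRPL10 beside LRRC46 and MRPS28 beside TPD52.

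Most pairs without POLR1A shared a POLR2A or an H3K4me3 peak. MRPL46 and MRPS11, 1 subunit of each kind, start 320 bp apart and shared 5.57-fold POLR2A and 10.5-fold H3K4me3, so the values of these members are the same peaks. MRPL49 starts 49 bp from FAU, which encodes a protein of the cytosolic small ribosomal subunit, with 13.9-fold POLR2A and 9.76-fold H3K4me3. MRPL32 starts 202 bp from PSMA2, a proteasome subunit, with 18.0-fold POLR2A. MRPL50 starts 233 bp from ZNF189 with 11.9-fold POLR2A, and MRPL57 starts 106 bp from SKA3, a kinetochore protein, with 11.3-fold POLR2A. MRPL9 and OAZ3 shared 17.4-fold H3K4me3 with no POLR2A. POLR1A was at 8 of the 42 members with a neighbour (19.05%), against 19.3% of protein-coding genes with one, and at 7 of the 35 members without (20.0%), against 7.91%. POLR2A was at 32 of the 42, against 59.4%, and at 26 of the 35 members without (74.3%), against 34.1%. Among members the shares with and without a neighbour were thus close, whereas over all genes those with a neighbour had higher shares, a contrast that was not tested.

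Peaks sat close to the annotated starts. Summits of POLR2A had a median of -56 bp from the nearest listed start, upstream of it, over 55 members, and 92.7% lay within 250 bp. Over 6961 protein-coding genes the median was -89 bp and 79.5% lay within 250 bp. H3K4me3 summits had a median of 49 bp downstream over 66 members, against 134 bp over 9250 genes, and 80.3% lay within 250 bp, against 52.1%. POLR1A summits had a median of -84 bp over 13 members, against -131 bp over 1904 genes. The H3K4me3 peaks of members were 298 to 2633 bp wide, and the POLR2A peaks 128 to 825 bp wide. At 3′ ends more than 2 kb from every listed start, POLR1A and POLR2A were found at 0 of 63 members and H3K4me3 at 1, MRPS26, where the peak reaches over from the start. The shares over all genes at such ends were 0.762% for POLR1A, 4.64% for POLR2A and 4.14% for H3K4me3.

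**Figure D5:**
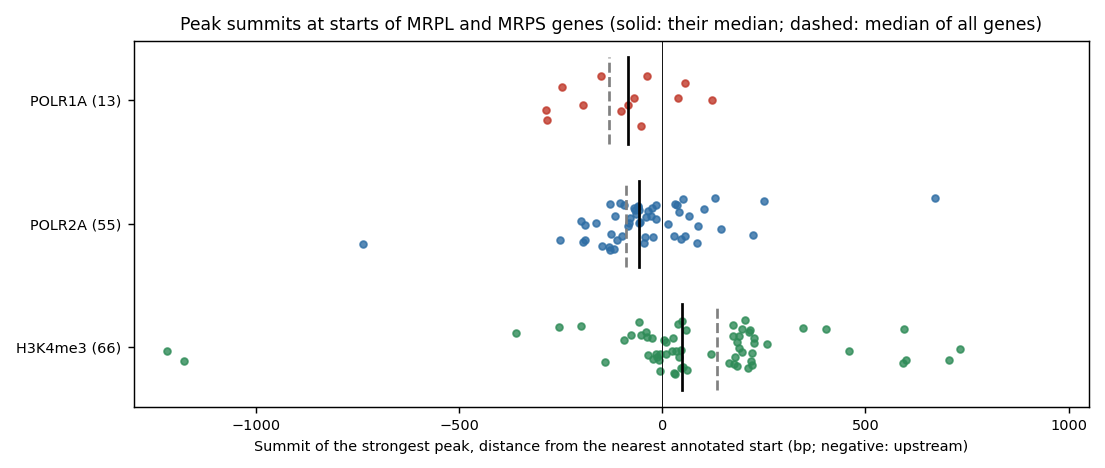
Distance in bp (horizontal axis, negative upstream) from the nearest listed start to the summit of the strongest peak of each target, 1 point per MRPL or MRPS gene with a peak within 1 kb of a start. POLR1A and POLR2A summits gather just upstream (medians -84 and -56 bp) and H3K4me3 summits around and after the start (median 49 bp), with the medians of all genes drawn dashed at -131, -89 and 134 bp.

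The promoters of members often held the letters bound by YY1, mostly just after the start. Each 300-base window was searched on both strands for 9 motifs, and no match of one overlapped a match of another at any member. The YY1 letters AAGATGGC were found at 21 of 69 members (30.4%), against 4.67% of protein-coding genes with a listed start and 6.86% of those with H3K4me3 there. At 16 members (23.2%) they stood on the sense strand with their first base 6 to 35 bases after a start, against 2.504% of all genes and 3.94% of those with H3K4me3. The motif contains ATG, and whether it is the translation start of these genes was not examined. MRPS7, MRPL38 and MRPS27 are among the 16, and their motif is the last stretch of capitals in the promoters above. For 12 of the other 13, the site is given here as 30 bases with the motif in capitals, from the same RefSeq table. The window of the last, MRPL22, ends before 30 bases are complete.
MRPL20 (chr1:1407260-1407289, minus strand): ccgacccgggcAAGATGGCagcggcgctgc
MRPS30 (chr5:44808949-44808978, plus strand): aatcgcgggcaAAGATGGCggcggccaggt
MRPS18B (chr6:30617852-30617881, plus strand): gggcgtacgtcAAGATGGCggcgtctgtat
MRPS10 (chr6:42217834-42217863, minus strand): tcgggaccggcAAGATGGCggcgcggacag
MRPS18A (chr6:43687764-43687793, minus strand): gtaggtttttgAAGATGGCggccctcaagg
MRPS24 (chr7:43869480-43869509, minus strand): ccgcttggcccAAGATGGCggcctccgtgt
MRPL50 (chr9:101398577-101398606, minus strand): ggatctcatcgAAGATGGCggcgcgatctg
MRPL49 (chr11:65122333-65122362, plus strand): cgtagcaggtaAAGATGGCagctaccatgt
MRPL51 (chr12:6493223-6493252, minus strand): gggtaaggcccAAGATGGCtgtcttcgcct
MRPL42 (chr12:93467511-93467540, plus strand): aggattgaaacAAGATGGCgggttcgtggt
MRPL46 (chr15:88467362-88467391, minus strand): tgggagaacgaAAGATGGCggcgcccgtaa
MRPL45 (chr17:38297170-38297199, plus strand): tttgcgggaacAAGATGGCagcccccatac

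Of these 16 genes, 9 of the large and 7 of the small subunit, 14 had H3K4me3, 12 had POLR2A and 3 had POLR1A, close to the shares of all members (92.2%, 75.3% and 19.5%). The other 2 were MRPS18B and MRPL45, which lie in the empty stretches described above. ETS letters (CCGGAAG) were found at 30 members (43.5%), against 16.5% of all genes and 23.7% of those with H3K4me3. The motif of THAP11 and ZNF143 was at 7 members (10.1%), against 3.12% and 4.67%. The other motifs are given against the same 2 backgrounds, all genes and those with H3K4me3. SP or KLF letters (GGGGCGGGG) were at 18 members (26.1%), against 26.3% and 34.9%. The NRF1 motif was at 9 members (13.0%), against 9.69% and 14.3%, and the E-box CACGTG at 9 (13.0%), against 10.9% and 12.9%. CCAAT, bound by NF-Y, was at 23 members (33.3%), against 42.1% and 43.6%. The TATA box letters TATAAA were at 3 members (4.35%), against 12.4% and 7.74%. The CREB letters TGACGTCA were at MRPL4 only, against 3.00% and 3.85%. The YY1 letters were at 3 of 13 members with POLR1A and 18 of 56 without it, and the ETS letters at 6 of 13 and 24 of 56. A match describes these letters in the window and shows no binding.

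Other genes of mitochondrial translation were read in the same way. The shares over all protein-coding genes were 54.6% for H3K4me3, 41.3% for POLR2A, 11.2% for POLR1A and 2.70% for H3K9me3. Of 5 mitochondrial ribosome subunits with other symbols, all had H3K4me3, 3 had POLR2A and the same 3 had POLR1A. These were DAP3, a GTP-binding small subunit protein, with 5.49-fold POLR1A, AURKAIP1 with 4.88-fold and PTCD3 with 4.78-fold. Of 25 assembly factors, 24 had H3K4me3, 22 POLR2A, 5 POLR1A and 1 H3K9me3. TFB1M, which methylates the ribosomal RNA of the small subunit, had 11.4-fold POLR1A, above every member, with 18.9-fold POLR2A. MPV17L2 had 8.23-fold POLR1A, RPUSD4, a pseudouridine synthase, had 5.25-fold, and GTPBP10, a GTPase, had 4.86-fold. Of 16 translation factors and partners, all had H3K4me3, 15 had POLR2A and 5 had POLR1A. Among genes with POLR2A, POLR1A was at 5 of 22 assembly factors (22.7%) and 5 of 15 translation factors (33.3%), against 26.0% of all genes with POLR2A. LRPPRC, which stabilises mitochondrial messenger RNAs, had 8.87-fold POLR1A, and TUFM, the mitochondrial elongation factor that brings in tRNA, had 6.95-fold. MTRFR had 6.20-fold and MTIF3, an initiation factor, had 5.83-fold.

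The genes of the cytosolic ribosome gave similar counts with a different balance of strength. Of 83 such genes, tissue-restricted paralogs included, 72 had POLR2A (86.7%), 73 had H3K4me3 (88.0%), 18 had POLR1A (21.7%) and 2 had H3K9me3. Their median POLR2A peak was 10.6-fold and their median H3K4me3 peak 10.3-fold, where members had 8.39-fold and 14.03-fold. Against the label of an intestinal line, POLR2A and H3K4me3 were each found at 9 of 16 intestinal epithelial genes (56.3%). The shares over all protein-coding genes were 41.3% for POLR2A and 54.6% for H3K4me3. KRT20, CDX1, VIL1, LGALS4, CLDN7, TFF3 and MUC13 had neither at an end. POLR2A was at 1 of 7 fibroblast genes (14.3%) and 1 of 6 leukocyte genes (16.7%). H3K4me3 was at 2 (28.6%) and 0 of them, against the same shares over all genes. The lists are short, and these counts do not settle the label.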

How the data were processed

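The data were 4 deposited MACS2 peak lists, 1 per target, with builds GRCh38 and hg38 per the submitters' processing notes. These notes list SAMtools 1.6, STAR and deepTools 3.1.1 among their tools, with no role. The caller's settings, its control and any pooling of replicates were not given in the sources used here. Per the file headers and layout, each peak carries a deposited fold enrichment (a linear ratio), a deposited −log10 q, and a display score, which was not used. The lowest −log10 q in each list was just above 1, a q of 0.1, so weak peaks are included. Read depth per sample is unknown, and list lengths (3812 POLR1A, 19997 POLR2A, 17181 H3K4me3 and 16414 H3K9me3 peaks) may reflect it, so strengths were never compared across lists.

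Peaks on chromosomes 1 to 22 and X were joined to gene ends of a RefSeq table of GRCh38.p14 (59792 genes) within 1 kb, in Python 3.11.15 with pandas 2.3.3 and scipy 1.17.1. Left out were 679 genes labelled with these chromosomes but listed after a break in position order, which were taken to lie on scaffolds. The highest fold enrichment at either end was a gene's value. Strand and starts came from the RefSeq promoter table and were known for 69 members and 15813 protein-coding genes. The other 8 members were left out of values at starts. The genes have 1.23 promoter windows each among members and 1.40 over all genes. The join was tested on simulated peaks. With 1 list per target, no test was planned or run, and shares carry exact 95% intervals that cover counting error only. Gene length, exon and intron were not used.

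The members and gene lists were chosen with earlier results of these data known. The text names members with POLR1A, with H3K9me3 or without H3K4me3, the 10 highest and 5 lowest for POLR2A, the 8 highest for H3K4me3 and the 6 highest without POLR2A. MRPL42, MRPL35, MRPS26, MRPL15 and the neighbours without POLR1A were named after their values were seen. The count of YY1 letters on the sense strand after a start was also chosen after the data were seen.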

Additional observations from a re-analysis of the deposited data

How the results depend on the processing

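Alternatives were windows of 500 bp and 2 kb, the summit in place of the whole peak, annotated starts only (69 members), a −log10 q of at least 5, and lists cut to the strongest 3812 peaks. Subunits by systematic name and leaving out the 4 members without any peak were added after seeing the data. Of 154 alternative values for 21 counts and medians, 26 could not change by construction, since the members left out had no peak and the equal lists have the length of the POLR1A list. Of the other 128, 106 stayed within 1.5 times of the reported count, or for medians inside the 95% interval of the reported median, and 22 moved, all of them under the q threshold or the equal lists. With a −log10 q of at least 5, POLR1A was at 8 members and 2 small subunit genes, 3 members with a neighbour had POLR1A, both polymerases were at the same end of 8, and H3K9me3 was at 0 members, 0 of either subunit and 0 with a neighbour. The median POLR1A peak was then 6.69-fold, and a median for H3K9me3 could not be given since no peak was left. With lists of equal length, POLR2A was at 23 members (15 large, 8 small, 12 with a neighbour), H3K4me3 at 44 (28 large, 16 small, 23 with a neighbour) and H3K9me3 at 1 (0 large, 1 with a neighbour), with medians of 12.1-fold for POLR2A and 15.9-fold for H3K4me3. Both settings drop peaks, 1 by q and the other by fold enrichment, and the reason for each move was not tested. No paired analysis was possible because each target has 1 list without values per replicate. The unknown depth and the 1 list per target limit what the absence of a peak shows.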
